A study of Mus musculus with 11 samples.

Results

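Growth factors that act on hepatocytes through the receptor tyrosine kinases Met and Egfr were followed over 4 time points in mouse liver injured by an overdose of acetaminophen (APAP), which is toxic to pericentral hepatocytes. The members were the 8 listed genes: the ligands Hgf, Hbegf, Areg, Tgfa and Egf and the receptors Met, Egfr and Erbb3. They were found by symbol among the 31053 genes of the files, and all 8 were among the 14821 genes tested. Spatial gene expression was measured with Visium, which captures polyadenylated RNA from a snap-frozen liver cryosection on an array of barcoded spots that each cover more than 1 cell. Of the 11 sections, 3 came from uninjured liver, called 0 h (replicates 2, 3 and 4), and 8 from liver after APAP. The injured sections were 24 h sections A and B, 36 h sections A and B, and 48 h sections A, B, C and D. The study's methods give adult C57BL/6JCrl wild-type mice, male unless stated otherwise, fasted and then injected with APAP intraperitoneally, with the liver of 1 mouse sectioned for each time. The labels do not tie sections to mice, so n counts sections, p-values measure the spread among sections and not among mice, and mouse and time cannot be told apart.

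Hepatocyte growth factor (Hgf) is made in the liver mainly by stellate and other non-parenchymal cells, is stored as an inactive precursor, and acts on hepatocytes through its receptor Met. The EGF family ligands Hbegf, Areg, Tgfa and Egf are made as membrane-anchored precursors, are cut from the cell surface by metalloproteases, and bind Egfr, a receptor that hepatocytes carry in abundance. Erbb3 has little kinase activity of its own, binds neuregulins, and signals as a partner of other ErbB receptors. Both receptor systems are known for driving hepatocyte division after loss of liver mass.

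The passing spots held 31292663 to 67045372 UMIs per section, over 1490 to 3466 spots with a median of 15168.5 to 29950 UMIs. All 6 hepatocyte markers were detected in every section, at a summed level of 84853 to 121832 CPM (CPM, UMIs scaled to a common section total after TMM normalization), so the tissue matched its label. Sections of a time point were not alike. At 36 h, section A lay near the 0 h sections for Met and Erbb3 while section B lay near those at 24 h. At 48 h, section D had the highest Egfr and the lowest Areg and Hbegf. The scaling also mattered: without TMM, by section total alone, the median gene stood 0.33, 0.44 and 0.53 higher on the log2 scale in the comparisons of 24 h, 36 h and 48 h with 0 h, so each change is given relative to the bulk of genes. In such section sums, fewer cells of a type and less RNA per cell cannot be told apart.

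Against 0 h, with TMM scaling, every ligand that was called was higher and every receptor that was called was lower. A gene was called at an adjusted p under 0.05 by edgeR's quasi-likelihood test with Benjamini-Hochberg adjustment over all genes tested. At 24 h, 2 members were called higher (Hbegf and Areg) and 2 lower (Met and Erbb3), beside 23.1% of all genes in the higher and 18.6% in the lower direction. At 36 h, only Hbegf was called, higher, against 16.8% of all genes higher and 12.4% lower. At 48 h, 5 members were called higher, namely all the ligands, and 1 lower, Erbb3, against 23.3% and 20.9% of all genes. The counts at 24 h and 36 h, and the lower count at 48 h, were near or below those shares. The median log2 fold change of the members was -0.07, 0.20 and 0.73 at the 3 times, beside 0.05, 0.05 and 0.01 over all genes tested. With scaling by section total, 3, 5 and 5 members were called at the 3 times, all of them ligands that were higher, and no receptor was called. The share of all calls that were higher then went from 55.4%, 57.5% and 52.7% to 80.4%, 94.1% and 93.7%.

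**Figure D1:**
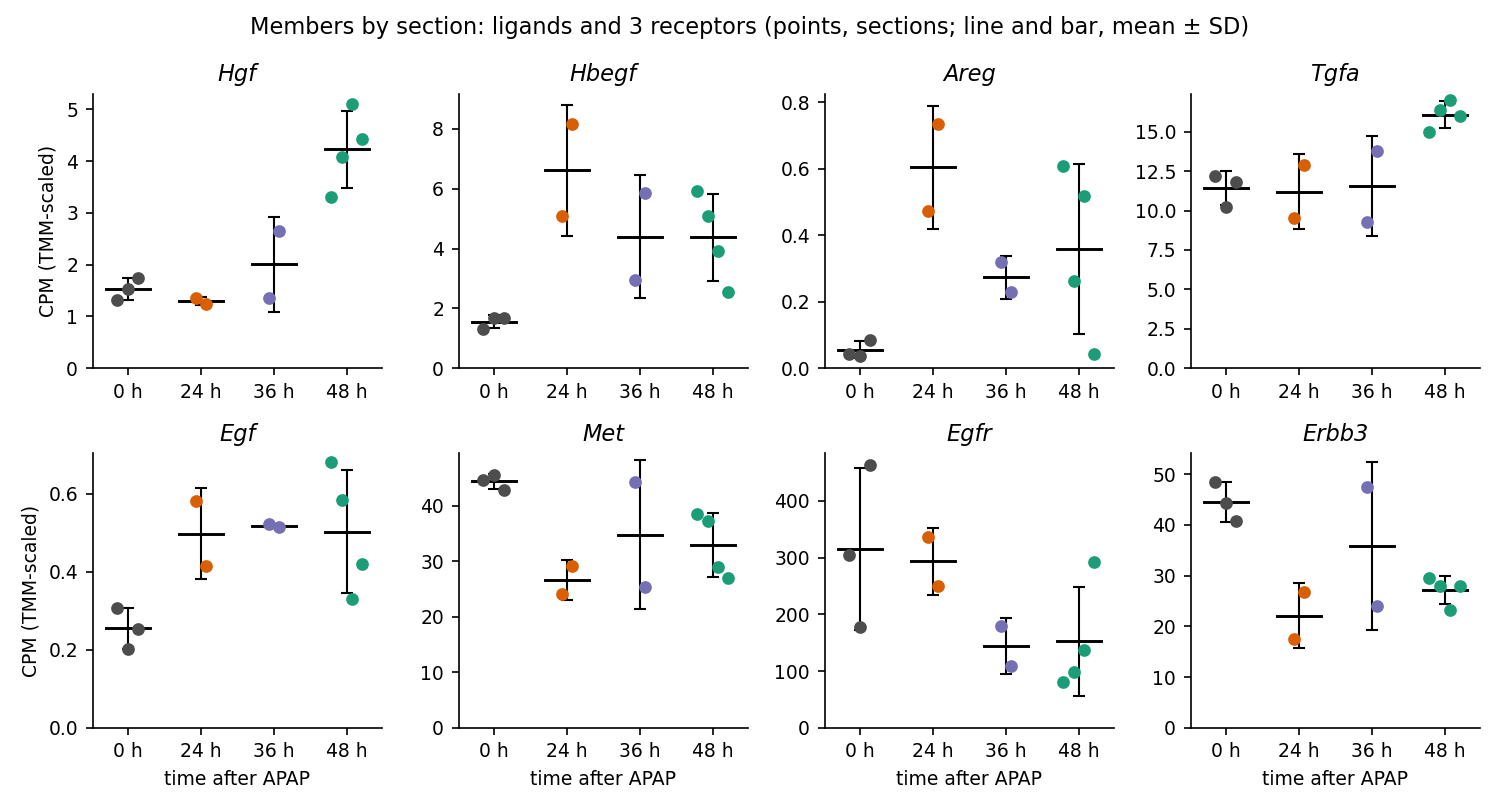
Level of each member (TMM-scaled CPM, linear axes from 0) in each section by time after APAP, with 1 point a section and the mean ± SD of the sections. The 4 sections at 48 h all lie above the 3 at 0 h for Hgf, Hbegf, Tgfa and Egf, and all below them for Met and Erbb3. How many of all genes tested separate the sections in such a way was not counted, here or for the members below. At 48 h, 23.3% of all genes were called higher and 20.9% lower.

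Hgf was late among the ligands. Its level was 1.32, 1.53 and 1.75 CPM in the 0 h sections 2, 3 and 4, and 1.35 and 1.24 CPM in the 24 h sections A and B. At 36 h it was 1.36 CPM in section A and 2.65 CPM in section B, and at 48 h it was 3.30, 4.09, 5.11 and 4.42 CPM in sections A to D. Every 48 h section thus lay above every other section, while the 24 h sections lay within or just below the range at 0 h. The rise from 0 h to 48 h was 2.76-fold (log2 fold change 1.47 ± 0.24, SE; adjusted p = 0.000810), from a mean of 1.53 ± 0.22 (SD, n = 3) to 4.23 ± 0.75 CPM (SD, n = 4). At 24 h the log2 difference from 0 h was -0.23 ± 0.30 (adjusted p = 0.56), and at 36 h it was 0.39 ± 0.29 (adjusted p = 0.32). The 36 h difference depended on the section and the scaling. It was 0.79 without 36 h section A and -0.17 without section B. By section total it was 0.82 and Hgf was called higher at 36 h (adjusted p = 0.032). Between 36 h and 48 h Hgf stood 1.07 ± 0.28 higher on the log2 scale, just short of the threshold (adjusted p = 0.065). Over the fits without 1 section that step ranged from 0.67 to 1.63, the highest being without 36 h section B. Without 48 h section A it was 1.18 with an adjusted p of 0.042, and DESeq2 gave 1.10 with an adjusted p of 0.0055. A fit of the 36 h and 48 h sections alone called 0 genes of all those tested. Hgf lies on mouse chromosome 5, plus strand, from base 16553495 to 16620152 of GRCm38, the mm10 build of the files (ENSMUSG00000028864).

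The myofibroblast list was also highest at 48 h, but was above 0 h already at 24 h, when Hgf was not. Its 6 genes (Acta2, Col1a1, Col1a2, Col3a1, Timp1 and Tagln) summed to 45.4 to 58.2 CPM at 0 h, 165 to 168 at 24 h, 151 to 463 at 36 h and 551 to 1288 at 48 h, with 3, 6 and 6 of the 6 genes called higher at the 3 times. The stellate cell list of 8 genes, among them Reln, Lrat and Colec11, moved otherwise, with 605 to 745 CPM at 0 h, 297 to 347 at 24 h and 450 to 616 at 48 h. At 24 h 5 of its genes were called lower and 2 higher, and at 48 h 2 were called lower and 2 higher. The part of either cell type in the Hgf level was not tested.

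Hbegf, the heparin-binding EGF-like ligand, was the only member called at all 3 times. Its level was 1.32, 1.69 and 1.67 CPM in uninjured sections, and it reached 5.08 and 8.17 CPM in the 24 h sections. It was 2.96 and 5.85 CPM at 36 h and 5.92, 5.09, 3.93 and 2.54 CPM at 48 h. All 8 injured sections lay above all 3 uninjured ones, the lowest being 48 h section D. The log2 fold change was 2.08 ± 0.38 at 24 h (4.22-fold; adjusted p = 0.0017), 1.496 ± 0.386 at 36 h (adjusted p = 0.017) and 1.48 ± 0.34 at 48 h (2.80-fold; adjusted p = 0.0050). The call at 36 h was lost without 36 h section B (0.92, adjusted p = 0.17) or without 0 h section 2 (1.37, adjusted p = 0.058). Hbegf lies on chromosome 18, minus strand, from base 36504927 to 36515805 (ENSMUSG00000024486).

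Areg, encoding amphiregulin, was nearly absent from uninjured liver, with 2, 2 and 3 UMIs in the 0 h sections. After APAP it had 22 and 23 UMIs at 24 h, 11 and 8 at 36 h, and 42, 13, 36 and 3 at 48 h. On the CPM scale these were 0.0368 to 0.0847 at 0 h, 0.473 and 0.734 at 24 h, 0.319 and 0.228 at 36 h, and 0.608, 0.262, 0.516 and 0.0433 at 48 h. All 24 h and 36 h sections lay above 0 h, whereas 48 h section D fell within the 0 h range. The Areg rise passed the test at 24 h, with a log2 fold change of 3.44 ± 0.91 (adjusted p = 0.011). It also passed at 48 h (2.72 ± 0.83; adjusted p = 0.022), while 36 h missed the threshold (2.33 ± 1.01; adjusted p = 0.10). These fold changes rest on 7 UMIs in all at 0 h. The call at 24 h was lost without 24 h section B (adjusted p = 0.059), and that at 48 h without 0 h section 2, 0 h section 3 or 48 h section C (adjusted p = 0.051 to 0.086).

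Areg lies on chromosome 5, plus strand, from base 91139599 to 91148432 (ENSMUSG00000029378). Because it came up from so few UMIs, the 250 bases before its RefSeq start are shown (GRCm38.p6, chr5:91139349-91139598, plus strand, 5′ to 3′). The capitals mark the cyclic AMP response element TGACGTCA, which begins 61 bases before the start.
Areg promoter: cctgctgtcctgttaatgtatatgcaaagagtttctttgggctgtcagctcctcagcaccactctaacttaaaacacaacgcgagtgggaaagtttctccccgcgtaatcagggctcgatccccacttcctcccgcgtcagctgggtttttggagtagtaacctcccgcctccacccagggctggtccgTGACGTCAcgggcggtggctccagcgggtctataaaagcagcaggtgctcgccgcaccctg
These letters occurred on either strand in 1.55% of the 32851 RefSeq promoter windows of this length, and the AP-1 letters TGANTCA, where N is any base, in 6.75%. For the members, 8 windows of 6 genes were searched, with none for Hbegf or Erbb3. The CRE letters were found only in that of Areg and the AP-1 letters only in that of Met, 54 bases before its RefSeq start. The Met match lies inside the gene as annotated, which begins further upstream, so that window is no promoter by that annotation and is not shown. The windows before the second listed starts of Hgf and of Egf also lie inside the genes as annotated. A match describes the letters and is no evidence of binding. The window before the first of the 2 listed starts of Hgf, a ligand with a late rise, is shown for comparison and holds neither motif (chr5:16553245-16553494, plus strand).
Hgf promoter: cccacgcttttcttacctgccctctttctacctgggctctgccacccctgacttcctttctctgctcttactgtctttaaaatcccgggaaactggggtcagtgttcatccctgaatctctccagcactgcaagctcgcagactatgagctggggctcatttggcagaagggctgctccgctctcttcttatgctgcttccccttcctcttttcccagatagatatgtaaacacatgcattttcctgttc

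Tgfa and Egf were called at 48 h only. Tgfa, encoding the EGF-like ligand TGF-alpha, was 10.2 to 12.2 CPM at 0 h, 9.51 and 12.9 at 24 h, 9.30 and 13.8 at 36 h, and 15.0, 16.3, 17.0 and 16.0 at 48 h. All 48 h sections lay above all others, and the log2 fold change against 0 h was 0.49 ± 0.15 (1.41-fold; adjusted p = 0.019). At 24 h and 36 h it was -0.03 ± 0.18 and 0.02 ± 0.18 (adjusted p = 0.89 and 0.96). The 48 h call was lost without 0 h section 3 (0.41, adjusted p = 0.087). Tgfa lies on chromosome 6, plus strand, from base 86195223 to 86275719 (ENSMUSG00000029999).

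Egf itself was scarce, with 9 to 47 UMIs per section. It was 0.202 to 0.308 CPM at 0 h, 0.581 and 0.415 at 24 h, 0.521 and 0.514 at 36 h, and 0.680, 0.584, 0.330 and 0.419 at 48 h, so all 8 injured sections lay above the 3 at 0 h. Its log2 fold change was near 1 at each time: 0.98 ± 0.40 at 24 h (adjusted p = 0.070), 1.02 ± 0.40 at 36 h (adjusted p = 0.079) and 0.98 ± 0.33 at 48 h (adjusted p = 0.035). Only the last was called, and it was lost in 5 of the 11 fits without a section (0.79 to 1.14, adjusted p = 0.051 to 0.13) and without the filter on low counts (0.97, adjusted p = 0.0501). Egf lies on chromosome 3, minus strand, from base 129677565 to 129755316 (ENSMUSG00000028017).

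Among the receptors, Met, which binds Hgf, stood at 44.6, 45.6 and 42.9 CPM at 0 h. It was 24.1 and 29.2 CPM at 24 h, 44.2 in section A and 25.3 in section B at 36 h, and 38.6, 37.2, 29.0 and 27.0 CPM at 48 h. The 24 h and 48 h sections all lay below 0 h, and the 36 h sections fell to either side of the gap. Met was called lower at 24 h only (log2 fold change -0.74 ± 0.23; adjusted p = 0.024), and was -0.35 ± 0.22 at 36 h (adjusted p = 0.26) and -0.43 ± 0.18 at 48 h (adjusted p = 0.081). The 24 h call was lost with scaling by section total (-0.41, adjusted p = 0.16) and without 0 h section 3 or either 24 h section (adjusted p = 0.052 to 0.16). Without 36 h section A, Met was called lower at 36 h (-0.81, adjusted p = 0.017). At 48 h the direction itself depended on the scaling, with 0.10 by section total (adjusted p = 0.67), and Met was called lower without 36 h section A or B (-0.43 and -0.44, adjusted p = 0.021 and 0.017) and in a fit of the 0 h and 48 h sections alone (-0.42, adjusted p = 0.024). Met lies on chromosome 6, plus strand, from base 17463800 to 17573980 (ENSMUSG00000009376).

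Erbb3 had a course like that of Met. It was 48.5, 44.3 and 40.7 CPM at 0 h, 17.5 and 26.7 at 24 h, 47.5 and 24.1 at 36 h, and 29.6, 28.0, 23.3 and 28.0 at 48 h. Again the 24 h and 48 h sections lay below 0 h, and 36 h section A lay with the uninjured ones. Erbb3 was called lower at 24 h (log2 fold change -1.01 ± 0.26, from a mean of 44.5 to 22.1 CPM; adjusted p = 0.011) and at 48 h (-0.71 ± 0.21; adjusted p = 0.020), and was -0.32 ± 0.26 at 36 h (adjusted p = 0.37). Without 36 h section A the 36 h difference was -0.89 with an adjusted p of 0.014, and without section B it was 0.09 with an adjusted p of 0.80. By section total the changes at 24 h and 48 h were -0.69 (adjusted p = 0.0503) and -0.18 (adjusted p = 0.47). The 24 h call was also lost without 24 h section A (-0.74, adjusted p = 0.11), and the 48 h call without 0 h section 2, 0 h section 3 or 48 h section C (adjusted p = 0.054 to 0.074). Erbb3 lies on chromosome 10, minus strand, from base 128567523 to 128589652 (ENSMUSG00000018166).

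Egfr varied widely among sections of 1 time point and was called at none of the 3 times. It was 304, 178 and 464 CPM at 0 h, 335 and 251 at 24 h, 180 and 110 at 36 h, and 80.1, 99.1, 137 and 293 at 48 h. Groups overlapped at every time, although 3 of the 4 sections at 48 h lay below all 0 h sections. The log2 difference from 0 h was -0.11 ± 0.55 at 24 h, -1.12 ± 0.57 at 36 h and -1.05 ± 0.45 at 48 h (adjusted p = 0.90, 0.16 and 0.086). Without 48 h section D the last became -1.58 with an adjusted p of 0.0066. Over all fits without 1 section it ranged from -1.58 to -0.67, with an adjusted p of up to 0.31. Egfr lies on chromosome 11, plus strand, from base 16752203 to 16918158 (ENSMUSG00000020122).

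**Figure D2:**
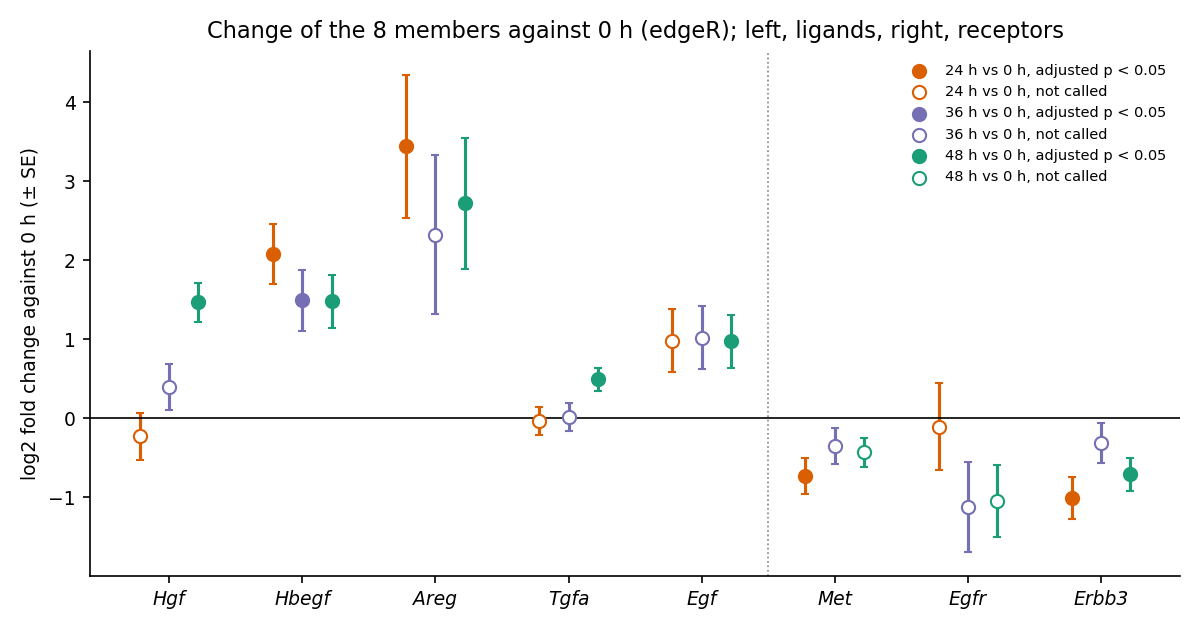
Log2 fold change of each member against 0 h at 24 h, 36 h and 48 h (points, edgeR estimate; bars, SE), ligands left of the dotted line and receptors right of it. Filled points passed an adjusted p of 0.05: Hbegf at all 3 times, Areg, Met and Erbb3 at 24 h, and Hgf, Areg, Tgfa, Egf and Erbb3 at 48 h.

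Between successive injured time points no member was called. From 24 h to 36 h, 0 of 8 were called where 15.6% of all genes were, and 1 member, Erbb3, had an unadjusted p under 0.05 (log2 difference 0.70 ± 0.28; adjusted p = 0.11). From 36 h to 48 h, 0 of 8 were called where 3.05% of all genes were, and 2, Hgf and Tgfa, had an unadjusted p under 0.05. Tgfa stood 0.48 ± 0.17 higher at 48 h than at 36 h (adjusted p = 0.15). DESeq2 called 0 members in the first step and 1, Hgf, in the second. The result hung on the 36 h sections: without section A, Hgf was called higher at 36 h than at 24 h (1.02, adjusted p = 0.036), and without section B, Met (0.77, adjusted p = 0.045) and Erbb3 (1.14, adjusted p = 0.016) were. Without section B, 3 members were called from 36 h to 48 h, with Hgf (1.63) and Tgfa (0.78, adjusted p = 0.036) higher and Erbb3 lower (-0.81, adjusted p = 0.038).

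Where the members lay in the tissue was read from spots grouped by hepatocyte transcripts. In each section the 10% of spots with the lowest hepatocyte score (Alb, Ttr, Trf, Hp, Hnf4a and Apoa1, each spot thinned to 2000 UMIs) was set against the other spots, in CPM of each set's own UMIs without TMM, with 1 CPM added before the log2 ratio. The classes were made from measured genes of the same spots, none of them a member, so the values are a description. The hepatocyte list itself was lower by 0.49 to 1.09 on the log2 scale in the hepatocyte-poor spots of the injured sections and by 0.29 to 0.41 at 0 h. In injured liver those spots were also higher in the lists for myofibroblasts (1.35 to 2.38), mononuclear phagocytes (0.88 to 2.19), neutrophils (1.38 to 2.14) and endothelial cells (0.48 to 1.14), each in 8 of 8 sections. At 0 h the hepatocyte-poor spots differed from these, with the pericentral list 0.78 to 1.13 higher (-0.60 to 0.52 in injured sections) and the mononuclear phagocyte list at -0.24 to -0.22, so ratios at 0 h and after injury compare unlike spots. The periportal list was lower in both (-0.83 to -0.59 at 0 h and -1.56 to -0.72 after injury). The part of these lists in the members' ratios was not tested.

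In the 8 injured sections, Hbegf and Tgfa were higher in the hepatocyte-poor spots of every section, as were 39.4% of all genes tested, and Egfr and Erbb3 were lower in every section, as were 6.50% of all genes. For Hbegf the log2 ratio was 1.30 and 1.20 at 24 h, 0.85 and 0.64 at 36 h, and 0.36 to 0.77 at 48 h. In 24 h section A its level was 12.3 CPM in hepatocyte-poor spots and 4.39 in the others, and in section B it was 17.4 and 6.98. Tgfa had ratios of 0.58 and 0.87 at 24 h, 0.69 and 0.49 at 36 h, and 0.19 to 0.66 at 48 h, though 48 h section C gave -0.1279 with 1 score threshold fixed on the 0 h spots. At 0 h, in unlike spots, the ratios were 0.02 to 0.77 for Hbegf and 0.09 to 0.31 for Tgfa. Hbegf levels at 0 h were only 1.04 to 2.73 CPM, so the added 1 CPM shrinks its ratios there more than at 24 h. In 0 h section 4 they were 2.73 CPM in hepatocyte-poor spots and 1.18 in the others.

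Hgf was higher in hepatocyte-poor spots in every section but 1, 24 h section B. At 0 h its log2 ratio was 0.11 to 0.47, on 22 UMIs in the hepatocyte-poor spots of the 3 sections together. Hgf levels at 0 h were 1.02 to 2.18 CPM, so the added 1 CPM shrinks these ratios. At 24 h its ratio was 0.43 in section A and -0.22 in section B, on 9 and 3 UMIs in the hepatocyte-poor spots. At 36 h it was 0.92 and 0.82, and at 48 h it was 0.85, 0.998, 0.86 and 1.19 in sections A to D. The 48 h levels were 6.87 to 11.2 CPM in hepatocyte-poor spots and 3.35 to 5.46 in the other spots of the same sections. In 0 h sections neither set of spots exceeded 2.18, so both sets stood higher at 48 h.

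Erbb3 and Egfr showed the reverse layout after injury. Erbb3 was lower in the hepatocyte-poor spots of all 8 injured sections, by 0.20 and 0.25 at 24 h, 0.19 and 0.73 at 36 h and 0.63 to 0.82 at 48 h on the log2 scale. At 0 h, where the hepatocyte-poor spots were rich in pericentral transcripts, it was higher in all 3 sections, by 0.25 to 0.42. Met had ratios of 0.11 to 0.17 at 0 h, 0.30 and 0.03 at 24 h, -0.08 and -0.32 at 36 h and -0.59 to -0.30 at 48 h, and its mean at 0 h was -0.0091 without thinning. Egfr was lower in all 11 sections, by 0.10 to 0.27 at 0 h and 0.27 to 0.91 in injured sections. At 0 h, 5 members (Hgf, Met, Hbegf, Tgfa and Erbb3) were higher in all 3 sections, where 26.9% of all genes were, and Egfr was lower in all 3, where 12.2% were. Of these 5, the mean ratio at 0 h turned negative without thinning for Hbegf (-0.3574) and Met (-0.0091), and with a fixed threshold set on the 0 h spots for Hgf (-0.3634) and Tgfa (-0.1326), in the 2 sections that gave a value. Areg and Egf were also nominally lower there, on 0 and 1 UMIs in the hepatocyte-poor spots of all 3 sections together, too few to place them.

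**Figure D3:**
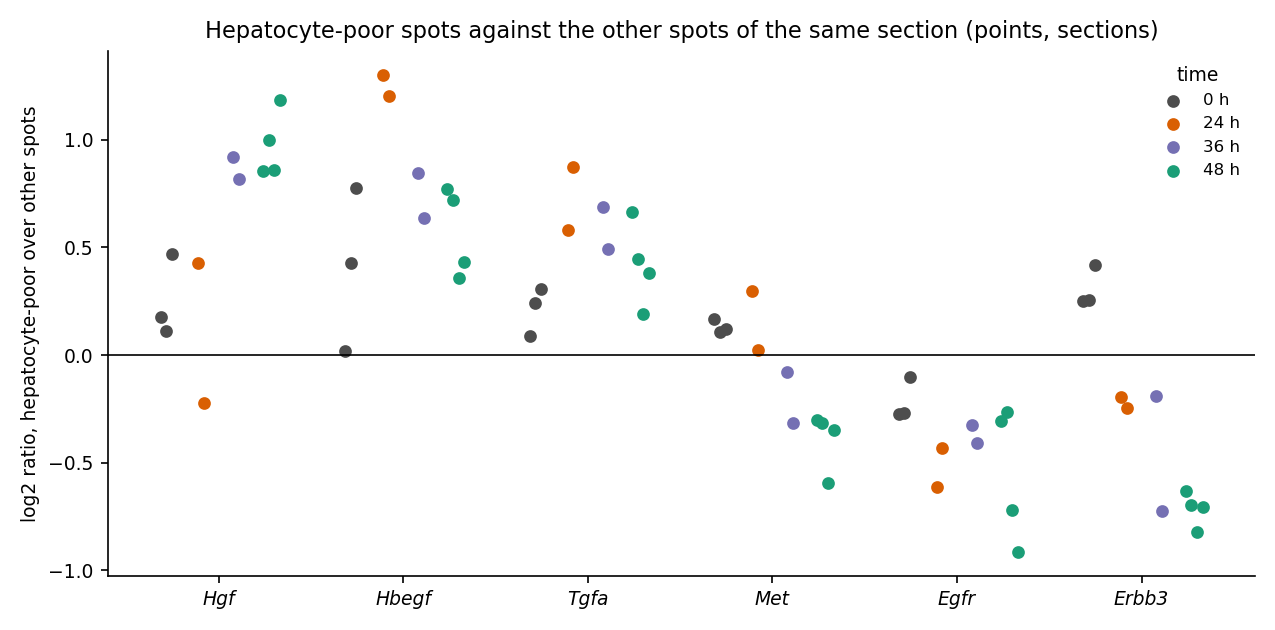
Log2 ratio of the level in hepatocyte-poor spots to that in the other spots of the same section, for the 6 members with enough UMIs (1 point a section, coloured by time). Hbegf and Tgfa lie above 0 in all 11 sections, Egfr lies below 0 in all 11, and Erbb3 lies above 0 at 0 h and below it in the 8 injured sections.

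The levels were then read by distance on the spot grid from the nearest hepatocyte-poor spot. At 48 h, Hgf averaged 9.52 CPM in the hepatocyte-poor spots, 5.45 in spots touching them, 3.57 at 2 steps and 4.01 at 3 or more steps. Hbegf averaged 7.70, 6.17, 3.95 and 3.79 CPM over the same steps. Tgfa was as high in the touching spots (23.6) as in the hepatocyte-poor ones (24.1) and dropped to 14.4 at 2 steps. Erbb3 averaged 19.5, 31.3, 33.3 and 33.1 CPM. On these means the ligand levels in touching spots lay above those at 2 steps, and the Erbb3 level was lowest in the hepatocyte-poor spots themselves. These levels were not TMM-scaled. By section total Erbb3 changed by only -0.18 at 48 h, so the distance levels do not place its called fall of -0.71, which was TMM-scaled. At 48 h, the hepatocyte-poor spots held 450 Erbb3 UMIs and the other spots 6544. Over the 8 injured sections, the hepatocyte-poor spots held the highest level of Hgf in 7, of Hbegf in 7 and of Tgfa in 6, and the lowest level of Egfr in 8, of Erbb3 in 8 and of Met in 6. Such counts were not made for all genes. Against the other spots, 39.4% of all genes were higher and 6.50% lower in hepatocyte-poor spots of all 8 injured sections. At 24 h, Erbb3 was 20.6 CPM even at 3 or more steps, against 33.7 at 0 h, so its lower level at that time was not limited to hepatocyte-poor spots.

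**Figure D4:**
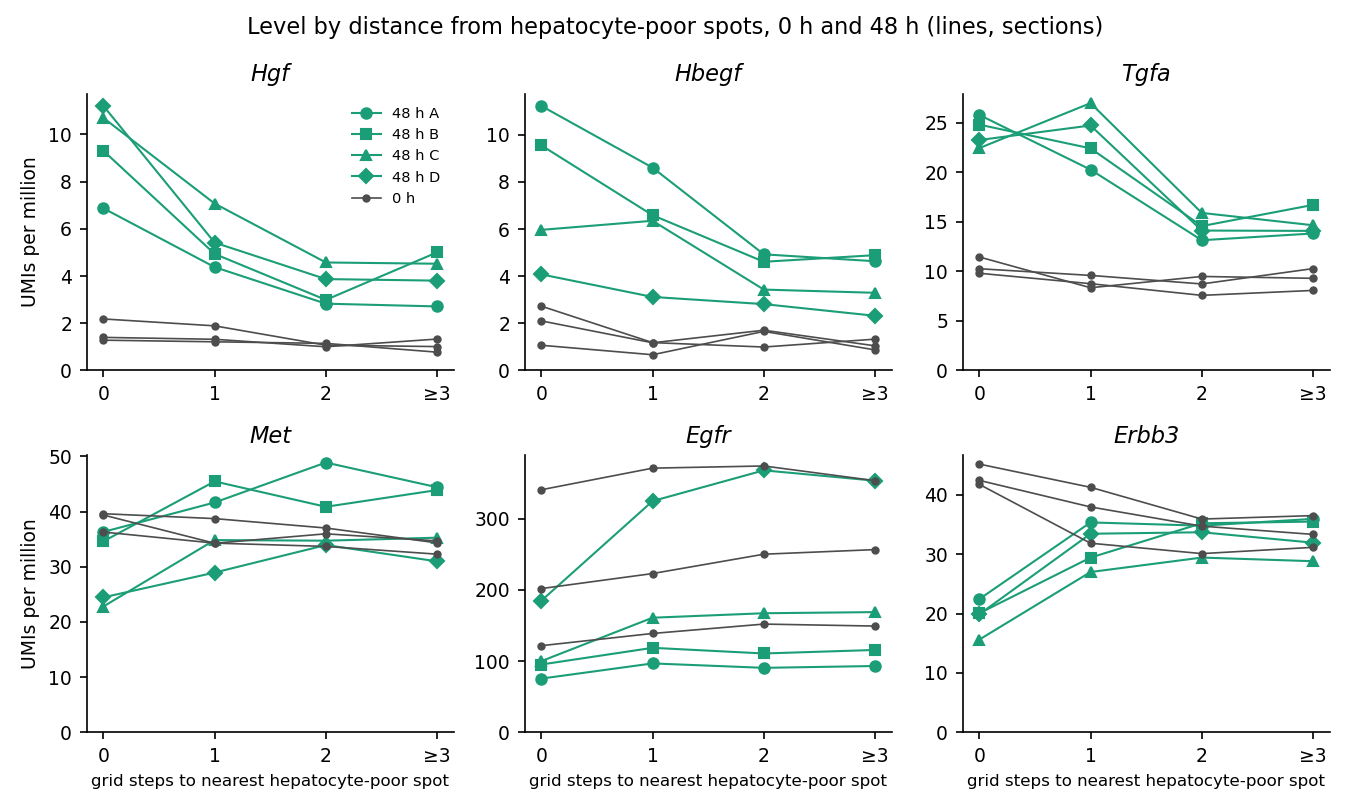
Level (CPM of the spots' own UMIs, linear axes from 0) against hexagonal grid steps from the nearest hepatocyte-poor spot in the 4 sections at 48 h (green) and the 3 at 0 h (grey), 1 line a section. In all 4 sections at 48 h, Hgf and Hbegf are higher at 0 steps than at 2 or more and Erbb3 is lower at 0 steps than at any other distance, while the 0 h lines of Hgf stay at or under 2.18. The lines are not monotonic, with Hgf in 48 h section B at 2.99 at 2 steps and 5.01 at 3 or more.

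In uninjured liver the members were set against the lobule axis, by splitting the spots of each section into 3 equal classes on a central minus portal score and comparing the highest class (pericentral) with the lowest (periportal). Erbb3 was higher in pericentral spots in all 3 sections (log2 ratio 0.14 to 0.23), as was Met (0.01 to 0.20), where 31.7% of all genes were. Egfr was lower in all 3 (-0.35 to -0.16), where 17.0% of all genes were. The zone markers themselves differed far more, with the pericentral list 1.77 to 1.93 higher. Hgf, Hbegf, Tgfa and Egf had no common sign over the 3 sections, and Areg had 0 UMIs in the pericentral spots. Median depth was 19747 to 30332.5 UMIs in pericentral and 23256.5 to 33699.5 in periportal spots.

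The share of spots with at least 1 UMI was compared after thinning each spot to 5000 UMIs, which left out 1 to 260 spots a section. Hgf was found in 0.822% to 1.09% of spots at 0 h, 0.495% to 0.954% at 24 h, 0.677% to 1.10% at 36 h and 1.88% to 2.86% at 48 h. Hbegf was found in 0.4663% to 0.870% at 0 h, 2.98% to 4.33% at 24 h and 1.25% to 3.38% at 48 h. Egfr was found in 51.8% to 81.2% of spots at 0 h and 35.6% to 79.4% at 48 h, with wide overlap. For Hgf, Hbegf, Tgfa and Egf every 48 h section exceeded every 0 h section, and how many other genes did so was not counted. Without thinning, Hgf was found in 2.66% to 3.05% of spots at 0 h and 6.29% to 12.5% at 48 h. The thinned shares of Hgf, Areg and Egf rest on few spots.

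Spots with an Hgf UMI were set against the others of the same thinned section, where at least 20 such spots existed. In 6 injured sections with 22 to 73 such spots, the hepatocyte list was lower in 6 of 6 (median log2 ratio -0.08), the mononuclear phagocyte list was higher in 6 of 6 (0.24), and the myofibroblast list was higher in 5 of 6 (0.53). For Egfr the hepatocyte list was higher in 8 of 8 injured sections (0.05) and the phagocyte list was lower in 8 of 8 (-0.23). A spot mixes cells, so these ratios do not assign a transcript to a cell type.

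The 54 genes around the members fell into 8 lists, and 51 were tested. Against 0 h, the 24 h sections had 23 genes higher and 8 lower, those of 36 h had 18 and 3, and those of 48 h had 27 and 6. Over all genes tested, 23.1%, 16.8% and 23.3% were called higher and 18.6%, 12.4% and 20.9% lower at these times, the background for every list count here. Scaling by section total gave more higher calls and fewer lower ones, with 28 and 1, 37 and 0, and 39 and 0. Leaving out 1 section gave 16 to 24 higher and 2 to 10 lower at 24 h, 11 to 19 and 1 to 4 at 36 h, and 20 to 27 and 4 to 8 at 48 h. The lowest count of 2 came without 24 h section A.

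Of the 9 genes for HGF activation and inhibition, 2, 3 and 4 were called higher and 2, 0 and 2 lower at the 3 times (median log2 fold change -0.27, 0.96 and 0.96). Plat, the tissue plasminogen activator, was called higher at 36 h and 48 h, with 0.198 to 0.537 CPM at 0 h, 0.667 and 0.893 at 24 h, 1.59 and 8.504 at 36 h and 6.03 to 14.9 at 48 h (log2 fold change 1.37, 4.08 and 5.24; adjusted p = 0.22, 0.0034 and 0.00025). Plaur, the urokinase receptor, rose at all 3 times (4.93, 3.94 and 4.01). St14, the membrane protease matriptase, was called higher at 48 h (1.22, adjusted p = 0.0078) and stood 0.96 higher at 36 h (adjusted p = 0.072). The called genes included 2 lower ones at 48 h, Hgfac (-0.84) and Hpn (-0.29), which encode proteases that cleave the HGF precursor and which were named after their values were seen.

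Of the HGF-like protein Mst1 and its receptor Mst1r, Mst1r rose at all 3 times, from 0.198 to 0.254 CPM at 0 h to 0.477 to 0.926 at 48 h (1.75, adjusted p = 0.0028), and Mst1 was called at none (0.19, 0.08 and -0.15). Of 7 other ErbB ligands 4 were tested, and none was called lower. Ereg, encoding epiregulin, was 3.14 and 4.72 CPM in the 24 h sections against 0.110 to 0.480 at 0 h (3.46, adjusted p = 0.00095), and back at 0.145 to 0.705 CPM from 36 h on. Nrg4, a neuregulin, was 11.1 and 34.7 CPM at 24 h, 22.3 and 27.9 at 36 h and 6.05 to 11.5 at 48 h against 3.62 to 4.77 at 0 h, and was called at all 3 times. Nrg1, also a neuregulin, was called higher at all 3 times too (2.64, 1.63 and 2.03), and Btc, betacellulin, at 48 h (1.11, adjusted p = 0.031). Of the remaining receptors, Erbb4 was called lower at 24 h (-2.04, adjusted p = 0.027, on 5 and 7 UMIs at 24 h) and Erbb2 was called higher at 48 h (0.70, adjusted p = 0.027).

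Of the 5 ligand shedding genes, 3, 3 and 4 were called higher and 1, 0 and 0 lower at the 3 times. The inactive rhomboid Rhbdf1, a partner of the sheddase Adam17, went from 5.28 to 7.66 CPM at 0 h to 16.6 and 21.7 at 24 h (1.55, adjusted p = 6.3e-05) and was still 12.7 to 13.2 at 48 h. Rhbdf2 rose by 0.88, 1.004 and 0.88 on the log2 scale. Adam10, a surface metalloprotease, was higher at 36 h (0.43) and 48 h (0.79), and its relative Adam9 was lower at 24 h (-0.64).

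Adaptors and effectors showed no common direction, with 3, 1 and 2 of 9 called higher and 2, 1 and 2 called lower at the 3 times. The kinase Src rose at all 3 times (1.18, 1.43 and 1.49), and Stat3, a transcription factor downstream of cytokine and growth factor receptors, was called higher at 24 h (0.86, adjusted p = 0.0014). Sos1, the exchange factor that activates Ras, was lower at all 3 times (-0.50, -0.68 and -0.73), and Plcg1 was lower at 24 h (-0.40). Among 7 genes for receptor inhibition and degradation, 2 or 3 were called higher and 2 lower at each time. Errfi1, an inhibitor of Egfr that its signalling induces, stood at 815 to 912 CPM at 0 h and 389 to 610 CPM in the injured sections (-0.65, -0.77 and -0.82; adjusted p = 0.017, 0.013 and 0.0016). Lrig1, which promotes receptor degradation, was lower at 36 h (-0.70). The ubiquitin ligase Cbl (0.63, 0.56 and 0.70) and the phosphatase Ptpn1 (0.87, 0.59 and 0.70) were higher at all 3 times.

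Feedback and target genes of ERK, the kinase downstream of these receptors, formed the longest list and had 9, 6 and 9 of 13 called higher at the 3 times and 0 lower, with a median log2 fold change of 0.99, 0.60 and 1.11. Fosl1, an AP-1 subunit, had 0, 1 and 0 UMIs at 0 h, 642 and 573 at 24 h, 102 and 217 at 36 h and 45 to 323 at 48 h, and was called at all 3 times. Ier3 (4.04, 2.60 and 2.53) and Dusp5, a phosphatase that inactivates ERK (3.55, 2.05 and 1.61), had their largest log2 fold changes at 24 h. For Etv4, an ETS factor, the log2 fold change was 2.32 at 24 h, 3.44 at 36 h and 3.80 at 48 h. Neutrophil markers rose alongside, with 5 of 5 called higher at every time, and the part of immune cells in the list values was not tested.

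**Figure D5:**
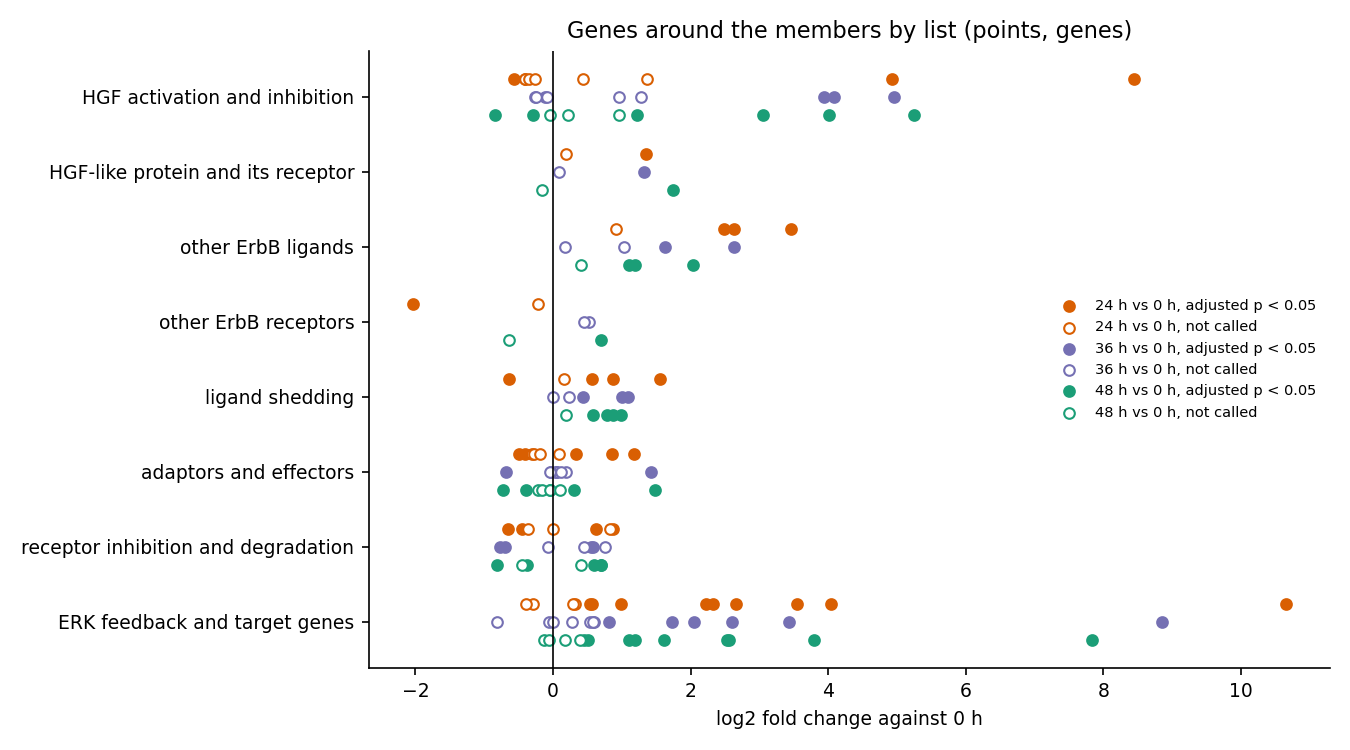
Log2 fold change against 0 h of the 51 tested genes of the 8 lists (1 point a gene, coloured by time, filled where the adjusted p was under 0.05). In the ERK list all 9, 6 and 9 called genes lie right of 0, whereas adaptors and inhibitors spread to both sides.

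Finally, each member's course over the 11 sections was matched to the other tested genes with a mean of at least 5 CPM, by the root mean square distance between log2 CPM profiles centred on their own means. Nearest to Hgf were Rgs10, Pmp22 and Tspan3, at distances of 0.18, 0.19 and 0.19 beside an SD of 0.74 for Hgf itself. Nearest to Met were Rmdn1 (0.11), Ptgr2 (0.11) and 2010315B03Rik (0.12), and nearest to Erbb3 were Rsrp1 (0.16), Epb41l5 (0.16) and Abcc6 (0.18). Hbegf lay nearest to Abhd2 (0.28), Klf6 (0.29) and Sox9 (0.29), and Areg to the keratins Krt8 (0.41) and Krt18 (0.42) and to Srxn1 (0.49), beside its own SD of 1.21. Tgfa was matched by Lsm8, Mfsd6 and Fat1 (0.13 each), beside its own SD of 0.30. Egf was matched by Ikbke (0.23), Tfrc (0.26) and Dgkd (0.26), beside an SD of 0.47, and Egfr by Gfod2 (0.39), C6 (0.44) and Rfxank (0.44), beside an SD of 0.78.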

How the data were processed

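Spatial transcriptomes of 11 mouse liver sections were used. Per the labels and the study's methods, the authors aligned reads with Space Ranger 1.0.0 to mm10, and the deposited values were raw UMI counts per gene and spot for 31053 genes and 4992 barcodes a section. Tissue spots that had 800 or more genes and no more than 20% of UMIs from mitochondrial genes (25136 in all) were summed to 1 column of counts a section.

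Section sums were fitted with edgeR 4.0.16 (filterByExpr, TMM, robust quasi-likelihood, all 11 sections in 1 fit, 14821 genes, two-sided, Benjamini-Hochberg over all genes within a comparison). The steps were tested on simulated counts. Alternatives were DESeq2 1.42.0, other scalings, filters and sample sets, and each section left out. Sections of a time point differed by far more than counting noise, so none was counted as a repeat of the same library. This does not show that they came from different mice.

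Spot classes used scores on spots thinned to 2000 UMIs and were not tested. The members, gene lists and tests were chosen with earlier results of these data known. Named genes were all members, up to 4 genes a list called against 0 h with the largest log2 fold change, and the 3 genes nearest in profile to each member, except that 1 gene the rule picked is not reported here. Promoters came from RefSeq. Images were not used here.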

Additional observations from a re-analysis of the deposited data

Results flagged for a closer look

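Among the 4 sections at 48 h, section C stood apart in the layout of Met. Its log2 ratio of hepatocyte-poor to other spots was -0.59, and its gap to the next section was 0.847 of the group's range, above Dixon's 95% critical value for 4 samples. Such a gap arises by chance in about 1 in 20 groups, and 16 groups were examined.

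The layout of both receptors took opposite signs at different times, with every section of a time on the same side. The mean log2 ratio of Met was 0.13 at 0 h and 0.16 at 24 h, against -0.20 at 36 h and -0.39 at 48 h. That of Erbb3 was 0.31 at 0 h, against -0.22 at 24 h, -0.46 at 36 h and -0.71 at 48 h. These differences were not tested. The 0 h class was rich in pericentral transcripts (that list 0.78 to 1.13 higher, against -0.60 to 0.52 in injured sections), and without thinning the mean of Met at 0 h was -0.0091.

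Array spots outside the tissue, used in no comparison, also held transcripts of the members. Of their own UMIs, Hgf made up at least 1.36 CPM in each 36 h section and 2.88 CPM in each 48 h section, against at most 1.13 CPM at 0 h. Hbegf made up at least 2.37 CPM at 24 h, 2.11 CPM at 36 h and 1.98 CPM at 48 h, against at most 1.06 CPM at 0 h. Tgfa made up at least 18.4 CPM at 48 h, against 7.41 to 10.6 CPM at 0 h. The source of this RNA, and its part in the levels within the tissue, was not tested.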

How the results depend on the processing

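Scaling by section total called 5 members, all the ligands, at 36 h against 0 h in place of 1, and 1 (Hgf) from 36 h to 48 h in place of 0. It turned the log2 difference of Hgf (0.0962), Egfr (0.2308) and Tgfa (0.2904) at 24 h, of Met (0.0953) and Erbb3 (0.1321) at 36 h and of Met (0.0968) at 48 h, all against 0 h, and of Met (0.0014), Hbegf (0.0873) and Egf (0.0426) from 36 h to 48 h. DESeq2 called 1 member, Hgf, from 36 h to 48 h, and a fit of only the compared groups called 2 members at 36 h and 7 at 48 h against 0 h, Met being added at 48 h. Differences near 0 turned sign under RLE scaling, DESeq2 and no filter, with Tgfa at 36 h against 0 h at -0.0031, -0.0029 and -0.0165, and Hbegf from 36 h to 48 h at 0.0068, 0.0076 and 0.0172. Without thinning, 7 members in place of 4 had a common sign between lobule zones. Without thinning, the mean hepatocyte-poor ratio at 0 h turned for Hbegf (-0.3574), Met (-0.0091) and Egf (0.2662), and the share of spots with a UMI moved for every member. A fixed 0 h threshold gave values in 2 sections at 0 h, where Hgf (-0.3634) and Tgfa (-0.1326) turned, and in 48 h section C, where Tgfa (-0.1279) and Areg (-0.6888) turned and Met was -1.4689. The lowest 20% of spots turned Egf at 0 h (0.1046). The cause of these changes was not tested.

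Without 1 section, 2 to 4 members were called at 24 h, 0 to 4 at 36 h and 2 to 7 at 48 h against 0 h, 0 to 2 from 24 h to 36 h and 0 to 3 from 36 h to 48 h. At 48 h the count fell to 3 without 0 h section 2 and to 2 without 0 h section 3. Hgf at 48 h, and Hbegf at 24 h and 48 h, were called in every such fit. Log2 differences that turned sign ranged, at 24 h against 0 h, from -0.4268 to 0.2366 for Egfr and -0.2673 to 0.1713 for Tgfa. At 36 h against 0 h they ranged from -0.1667 to 0.7916 for Hgf, -0.2968 to 0.268 for Tgfa and -0.8923 to 0.091 for Erbb3. From 24 h to 36 h they ranged from -0.0725 to 0.7702 for Met, -0.2238 to 0.3043 for Tgfa and -0.1653 to 0.3141 for Egf. From 36 h to 48 h they ranged from -0.4325 to 0.3801 for Met, -0.4573 to 0.4731 for Egfr, -0.4198 to 0.5543 for Hbegf, -0.233 to 0.1154 for Egf and -0.8098 to 0.1798 for Erbb3. An arm left with 1 section was assumed to vary like the others.

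Whether the section letters shared by injured groups pair the sections could not be decided (correlations of deviations -0.241 to 0.287). At 24 h and 36 h, A and B were the only sections, so their deviations from the group mean mirror each other. Letters A and B therefore had to give the same correlation between these times, 0.287. Correlations between unlike letters were not used as a reference. With the letter as a replicate block among injured sections, 0 members were called in either step between injured times, and from 36 h to 48 h the difference was 0.1425 for Met, -0.6472 for Egfr, 0.4130 for Hbegf and 0.2789 for Egf. Over all genes the block called 82 from 24 h to 36 h and 0 from 36 h to 48 h, against 984 and 7 in the same sections without it, a fit added after the data were seen. Areg and Egf rested on few UMIs, which limits their fold changes and places no spot class for them.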

Other observations

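Spots with a UMI of Hgf in injured sections were compared with other cell type lists as well. The neutrophil list was higher in them in 6 of 6 sections, and the stellate and endothelial lists were each higher in 5 of 6. In spots with a UMI of Hbegf, the myofibroblast and endothelial lists were higher in 8 of 8 injured sections. The stellate and mononuclear phagocyte lists were higher there in 7 of 8. Spots with a UMI of Tgfa were similar, with the endothelial and mononuclear phagocyte lists higher in 8 of 8 and the myofibroblast list in 7 of 8. These ratios describe mixed spots, and no test was made.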
